A study of Mus musculus with 6 samples.

Results

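The transcripts described here are those of 44 genes of the unfolded protein response and of protein folding in the endoplasmic reticulum (ER), out of 37224 genes counted in wild-type (wt) mouse embryonic pancreata at 13.5 and 15.5 days post coitum (dpc). The genes were listed by name and grouped by role into 9 sensors and transcription factors, 11 chaperones with their partners, 13 disulfide isomerases and other folding enzymes, and 11 genes of ER-associated degradation (ERAD). The embryos were of the C57/Bl6J strain and carried no allele or treatment other than wild type, so that age was the only labelled difference between the groups. Each stage had 3 biological replicates, and each replicate was the RNA of whole pancreata pooled from up to 3 embryos. All 44 genes were found by Ensembl identifier and all 44 passed the filter on low counts, but *Pdia2* lay under its minimum at 13.5 dpc and passed only through the 15.5 dpc samples. The comparison of 15.5 with 13.5 dpc asks how the ER folding machinery differed between the start of the secondary transition, when the pancreatic lineages are laid down, and a stage when acinar cells have begun to make digestive enzymes.

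The ER is where secreted and membrane proteins fold, receive sugars and form disulfide bonds. When client proteins outrun folding capacity, the membrane sensors Ire1, Perk and Atf6 signal to the nucleus through the transcription factors Xbp1, Atf4 and the cleaved form of Atf6, which raise chaperones, folding enzymes and ERAD genes, while ERAD moves misfolded proteins back to the cytosol for destruction. Acinar cells of the exocrine pancreas carry one of the largest secretory loads of any cell type and depend on Xbp1 for a normal ER. The sensors are switched on by protein modification, and Xbp1 by splicing of its mRNA, so that counts per gene give the amount of these transcripts and not the activity of the pathway.

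The total count on genes was 12895732 to 16389237 per sample at 13.5 dpc and 10546028 to 12491550 at 15.5 dpc. Values below are normalised counts, which are raw counts divided by a TMM scaling factor and put on a common library size, and they are given for replicates 1, 2 and 3 in that order. Stages were compared with edgeR's quasi-likelihood test over the 15578 genes that passed the filter, with Benjamini-Hochberg adjusted p-values, and a gene was called higher or lower at an adjusted p at or below 0.05. Fold changes are 15.5 over 13.5 dpc, on the log2 scale with their standard error (SE). The tissue label was checked with marker genes: summed over 18 acinar markers, the normalised count was 100190 to 120330 at 13.5 dpc and 639310 to 1367200 at 15.5 dpc, and the endocrine, duct and epithelial lists were detected at both stages. The 15.5 dpc samples differed more among themselves than the 13.5 dpc samples, with replicate 1 highest and replicate 2 lowest for most genes that rose, which is described with the genes it touches.

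Most of the ER genes rose between the stages. Of the 44 genes, 35 were called higher at 15.5 dpc and 9 were not called, whereas over all genes tested 11.6% were called higher and 10.7% lower. The share called higher was 79.5% of the list, and without *Pdia2* 34 of 43 genes were called higher with a median log2 fold change of 0.90. Without 13.5 dpc replicates 1, 2 and 3 in turn, 22, 23 and 23 of the 44 were called higher, where these refits called 4.54%, 4.7% and 5.04% of all genes higher. By the edgeR quasi-likelihood test 0 were called lower, 0 were lower at an unadjusted p under 0.05, and the Wald test of DESeq2 called 38 higher and 0 lower, against 15.2% and 12.2% of all genes by that test. The median log2 fold change of the list was 0.92, against -0.01 for all genes tested, and 5.41% of all genes had a higher fold change than this median. All 3 samples of 15.5 dpc lay above all 3 of 13.5 dpc for 39 of the 44 genes (38 without *Pdia2*) and below them for 0, against 22.8% of all genes above, 23.6% below and 46.4% in either direction. Of the called genes 18 (17 without *Pdia2*) had a log2 fold change of 1 or more, where 4.35% of all genes were called higher with a change of that size. The thresholds of the study's methods combine an adjusted p at or below 0.1 with a fold above 1.6 or below 0.6 and more than 100 normalised counts. They were applied here to the edgeR values, whereas the study used DESeq2. Its exclusion of pseudogenes, unknown transcripts and genes of other RNA types was not applied. By these thresholds 24 of the 44 (23 without *Pdia2*) were higher and 0 lower, against 6.3% and 3.58% of all genes, or 9.88% in either direction.

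The 44 genes held 1.23%, 1.27% and 1.24% of all counts in the 13.5 dpc samples and 2.20%, 1.87% and 2.04% in the 15.5 dpc samples. The exact 95% binomial intervals of these shares, which cover counting error only, reached from 1.22 to 1.28 over the first stage and from 1.86 to 2.21 over the second. The mean share thus went from 1.25% ± 0.0238 to 2.04% ± 0.164 (SD, n = 3 per stage), and the lowest 15.5 dpc sample lay above the highest 13.5 dpc sample. Among the classes, ERAD genes had the largest relative difference in their share, from 0.103% ± 0.0055 to 0.249% ± 0.0109 of the counts. The share of the chaperones was 0.559% ± 0.0148 and then 0.877% ± 0.0674, that of the folding enzymes 0.498% ± 0.0065 and then 0.786% ± 0.085, and that of the sensors 0.0875% ± 0.00436 and then 0.126% ± 0.00244.

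By class, 4 of 9 sensors and factors, 10 of 11 chaperones, 11 of 13 folding enzymes and 10 of 11 ERAD genes were called higher, read against the same 11.6% of all genes. The class medians of the log2 fold change were 0.48 for sensors, 0.96 for chaperones, 0.94 for folding enzymes and 1.05 for ERAD genes. With 1 sample left out these counts fell to as few as 6 chaperones (without 13.5 dpc replicate 1 or 3) and 6 folding enzymes (without 13.5 dpc replicate 1 or 2, and 7 without replicate 3), in refits that called 4.54% to 5.04% of all genes higher. Without *Pdia2*, 10 of 12 folding enzymes were called higher and their median was 0.78. Differences between the class medians were not tested. The marker genes of acinar cells moved in the same direction over the same samples: 16 of the 17 tested of 18 listed were called higher, with a median log2 fold change of 2.95, and the remaining gene tested, *Nr5a2*, had a log2 fold change of 0.028. The genes *Cuzd1*, *Pnlip*, *Amy2a5* and *Zg16* of that list were at or near 0 at 13.5 dpc. *Cuzd1* was not tested, and without the other 3, which passed the filter only through the 15.5 dpc samples, 13 of 14 acinar markers were called higher with a median of 2.75. In whole pancreata a larger number of acinar cells and more RNA of a gene per cell cannot be told apart, and the part of acinar cell number in the differences below was not tested.

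**Figure D1:**
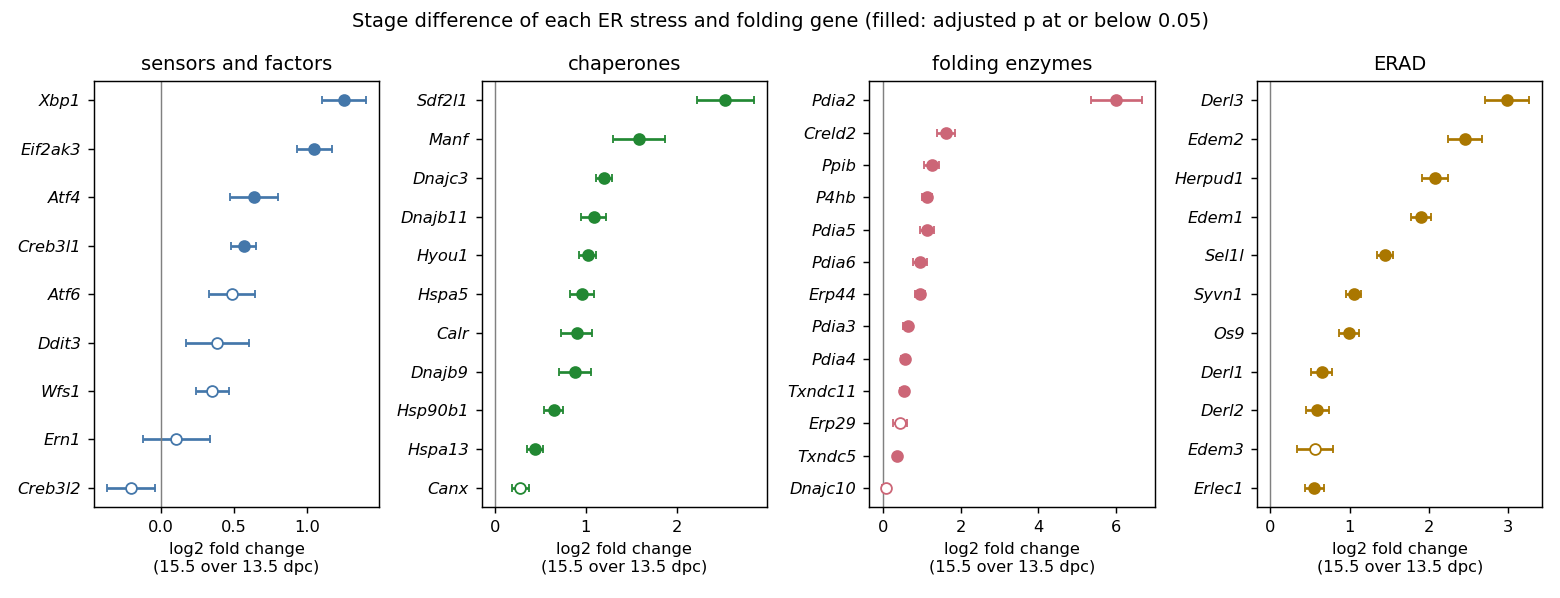
Log2 fold change of each of the 44 genes at 15.5 over 13.5 dpc on the horizontal axis, with bars of 1 SE from the edgeR fit (n = 3 samples per stage), by class, filled where the adjusted p was at or below 0.05. Of the 44 points 43 lie above 0 and 35 are filled, *Creb3l2* is the only point below 0, and the horizontal scales of the panels differ because *Pdia2* reaches 6.01.

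The promoters of these genes are shown before their values, since the unfolded protein response is known to act through short promoter sequences. The ER stress response element (ERSE) reads CCAAT, then 9 bases of any kind, then CCACG, and it binds Atf6 and Xbp1 through CCACG next to the factor NF-Y at CCAAT. Its variant ERSE-II reads ATTGG, 1 base of any kind and CCACG. RefSeq promoters of the build GRCm38.p6, from 250 bases before to 50 bases after the annotated start, were given for 36 of the 44 genes in 41 entries. Searched on both strands, ERSE was found in 9 of these 41 entries (22%), in 9 genes, and in 39 of all 32851 entries (0.119%). ERSE-II was found in 2 of the 41 entries and in 12 of all entries (0.0365%). The Xbp1 motif known as UPRE, TGACGTGG, was found in 2 of the 41 entries, those of *Txndc5* and *Txndc11*, and in 222 of all entries (0.676%), and the Atf4 motif TGATGNAAT in 0 of the 41 and in 317 of all (0.965%). All 4 motifs were searched separately, ERSE and ERSE-II share CCACG and the CCAAT block or its reverse complement ATTGG, and no match of a listed gene overlapped a match of another of the 4 motifs. A match here is a description of letters and not evidence of binding, and a missing match says only that these letters were not in the window. The matches are printed 5′ to 3′ on the strand on which the motif reads forward, with its fixed letters in capitals and the spacer in lower case.
Hspa5: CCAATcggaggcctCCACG
Calr: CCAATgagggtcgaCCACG
Hsp90b1, first match: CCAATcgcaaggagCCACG
Hsp90b1, second match: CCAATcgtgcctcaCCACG
Canx: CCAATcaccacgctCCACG
Dnajc3: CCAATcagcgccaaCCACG
Pdia6: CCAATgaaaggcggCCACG
Creld2: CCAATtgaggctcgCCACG
Derl3: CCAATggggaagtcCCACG
Syvn1: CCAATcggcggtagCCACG
Herpud1, ERSE-II: ATTGGgCCACG
Dnajb11, ERSE-II: ATTGGcCCACG

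The ERSE of *Hspa5* lay at chr2:34772025-34772043 and began 65 bases before the RefSeq start on the gene's own strand. Those of *Dnajc3* at chr14:118937827-118937845 and of *Syvn1* at chr19:6046532-6046550 were also on the gene's strand, beginning 105 and 44 bases before the start. Those of *Derl3* at chr10:75893242-75893260 and of *Creld2* at chr15:88819520-88819538 were on the other strand, 156 and 126 bases before the start. *Hsp90b1*, on the minus strand, held a match on each strand, at chr10:86705638-86705656 and chr10:86705533-86705551. The ERSE-II of *Herpud1* began 52 bases before the start, at chr8:94386377-94386387, whereas that of *Dnajb11* began 8 bases after it. The whole 250 bases before the start are printed for a chaperone partner, a folding enzyme and 2 ERAD genes that rose and whose window held no base of an annotated gene, on the gene's plus strand with the matched stretch in capitals, so that for *Creld2* and *Derl3* the capitals read as the reverse complement of the motif.
Dnajc3, chr14:118937682-118937931: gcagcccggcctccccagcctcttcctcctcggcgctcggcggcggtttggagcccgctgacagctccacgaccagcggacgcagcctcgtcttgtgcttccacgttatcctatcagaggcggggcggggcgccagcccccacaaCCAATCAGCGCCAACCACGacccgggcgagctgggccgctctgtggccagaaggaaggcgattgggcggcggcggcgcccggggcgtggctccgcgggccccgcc
Creld2, chr15:88819396-88819645: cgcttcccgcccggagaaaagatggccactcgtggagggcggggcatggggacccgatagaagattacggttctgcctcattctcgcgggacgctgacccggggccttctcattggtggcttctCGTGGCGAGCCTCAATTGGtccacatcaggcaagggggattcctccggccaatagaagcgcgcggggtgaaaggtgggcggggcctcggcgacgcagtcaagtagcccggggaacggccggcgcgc
Derl3, chr10:75893148-75893397: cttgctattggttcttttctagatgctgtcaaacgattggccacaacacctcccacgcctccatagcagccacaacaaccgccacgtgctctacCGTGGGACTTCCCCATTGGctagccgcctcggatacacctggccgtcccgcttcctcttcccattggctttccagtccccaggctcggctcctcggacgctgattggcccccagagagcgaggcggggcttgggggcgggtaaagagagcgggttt
Herpud1, chr8:94386179-94386428: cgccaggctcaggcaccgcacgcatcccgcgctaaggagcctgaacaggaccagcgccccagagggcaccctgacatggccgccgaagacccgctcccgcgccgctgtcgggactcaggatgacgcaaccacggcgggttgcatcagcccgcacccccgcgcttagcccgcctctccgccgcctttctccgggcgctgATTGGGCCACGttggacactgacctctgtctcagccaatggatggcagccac

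Of the 9 genes with a match 8 were called higher, with a median log2 fold change of 0.96 and a range from 0.28 for *Canx* to 2.99 for *Derl3*. Of the 27 genes with a promoter entry and no ERSE match 21 were called higher, with a median of 0.94, or 20 of 26 with a median of 0.91 without *Pdia2*. These 27 include 4 with a match of ERSE-II or UPRE, of which 4 were called higher, and 23 with none of the 4 motifs, of which 17 were called higher (16 of 22 without *Pdia2*). All these counts are read against the 11.6% of all genes called higher, and differences between the groups were not tested. Over all genes, 37 had an ERSE match in a promoter entry and 20 of them were tested. Of the 11 tested genes with a match that are not on the list, 1 was called higher and 2 lower.

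Among the sensors and factors, *Xbp1* (ENSMUSG00000020484, mm10 chr11:5520659-5525893, plus strand), the factor whose spliced form drives ERAD and folding genes, had the largest fold change. It had 3128, 3395 and 3348 normalised counts in the earlier samples, followed by 9380, 6262 and 7828 in the later ones. Each later sample was above each earlier one, and replicate 1 was the highest. The log2 fold change was 1.25 (SE 0.15, edgeR adjusted p = 0.00212), or 2.38-fold.

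*Eif2ak3* (chr6:70844515-70905245, plus strand), which encodes the kinase Perk, had 386, 433 and 468 normalised counts and then 789, 956 and 914. The stages were apart, and here replicate 2 was the highest of the later stage. The log2 fold change was 1.05 (SE 0.12, edgeR adjusted p = 0.00164). *Atf4*, the factor whose translation Perk promotes, had 2200, 2351 and 2225 normalised counts and then 4388, 2758 and 3386. The stages did not overlap, but replicate 2 of 15.5 dpc lay close to the earlier samples. Its log2 fold change of 0.64 (SE 0.16) had an edgeR adjusted p of 0.0326, which rose to between 0.0959 and 0.122 when any 13.5 dpc replicate or 15.5 dpc replicate 3 was left out.

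*Creb3l1*, the membrane-bound factor OASIS that is known in bone-forming and other secretory cells, had 958, 957 and 1046 normalised counts and then 1423, 1480 and 1480. The later samples were close together and all above the earlier ones, with a log2 fold change of 0.57 (SE 0.09, edgeR adjusted p = 0.00481). Its relative *Creb3l2*, the factor BBF2H7 of cartilage secretion, had 1437, 1538 and 1661 and then 1071, 1671 and 1274. These stages overlapped, since replicate 2 of 15.5 dpc was the highest of all 6. The log2 fold change was -0.21 (SE 0.16, edgeR adjusted p = 0.378), and without 15.5 dpc replicate 2 it was -0.38 with an adjusted p of 0.0222.

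The other sensors were not called. *Atf6*, the sensor that is cut to release its factor, had 598, 647 and 761 normalised counts and then 781, 1110 and 917, so that the stages were apart by a narrow margin, with a log2 fold change of 0.48 (SE 0.15, edgeR adjusted p = 0.0614). *Ern1*, which encodes the kinase and nuclease Ire1α, had 585, 645 and 793 and then 526, 977 and 670. Its stages overlapped fully, the log2 fold change of 0.11 (SE 0.23) was not called (edgeR adjusted p = 0.753), and the value was -0.087 with library size scaling alone and -0.16 without 15.5 dpc replicate 2.

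*Ddit3*, the stress factor Chop that is linked to cell death under lasting ER stress, was among the lowest of the list with 144, 148 and 101 normalised counts and then 215, 152 and 146. The stages overlapped, since replicate 3 of 15.5 dpc lay below the highest earlier sample, and replicate 2 exceeded that sample by a few counts (log2 fold change 0.38, SE 0.21, edgeR adjusted p = 0.221). *Wfs1*, the ER membrane protein wolframin, had a mean of 296.2 ± 18.9 and then 377.4 ± 34.9 (SD, n = 3), with stages apart and an edgeR adjusted p of 0.0635. *Atf6* and *Wfs1* were called higher by DESeq2 with adjusted p-values of 0.0243 and 0.0373, and edgeR also called them higher when either replicate 1 or replicate 2 of 15.5 dpc was left out.

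**Figure D2:**
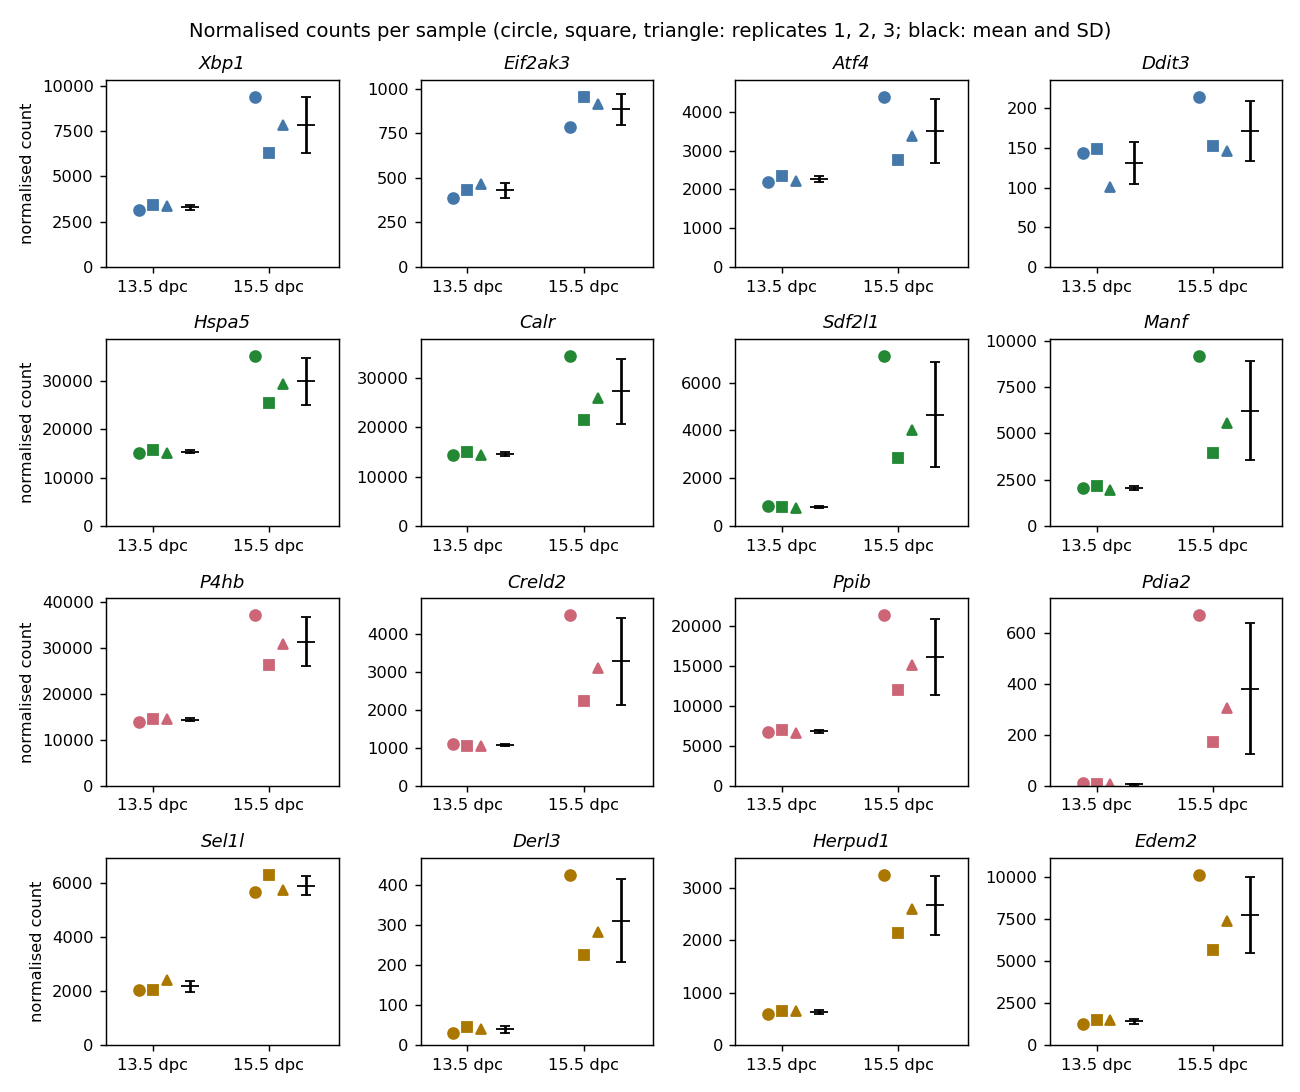
Normalised counts on the vertical axis, from 0, for 4 genes of each class in the 6 samples, where the circle, square and triangle are replicates 1, 2 and 3 and the black mark is the mean with its SD (n = 3). The earlier samples lie close together, the later ones are spread with replicate 1 at the top for most genes, and *Eif2ak3* and *Sel1l* have replicate 2 at the top.

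The chaperones were among the most abundant of the list. *Hspa5* (ENSMUSG00000026864, chr2:34771970-34777547, plus strand), which encodes BiP, the central ER chaperone and the protein that holds the sensors inactive, had 15224, 15759 and 15186 normalised counts and then 35163, 25506 and 29293. The earlier samples differed by little and every later sample was well above them. The log2 fold change was 0.96 (SE 0.13, edgeR adjusted p = 0.00331), or 1.95-fold.

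*Hsp90b1*, the ER member Grp94 of the HSP90 family, had 14719, 15612 and 14228 normalised counts and then 25742, 20956 and 23036. The stages were apart (log2 fold change 0.65, SE 0.11, edgeR adjusted p = 0.00698). The lectin chaperones of the calnexin cycle, which hold newly made glycoproteins, were both measured. *Calr*, the soluble calreticulin, had 14357, 15055 and 14380 and then 34354, 21445 and 25963, a log2 fold change of 0.90 (SE 0.17, edgeR adjusted p = 0.011). *Canx*, the membrane-bound calnexin, had 9492, 9464 and 9415 and then 10710, 12122 and 11659. All later *Canx* samples were above the earlier ones by a small amount, and its log2 fold change of 0.28 (SE 0.09) was the lowest of the chaperones and was not called (edgeR adjusted p = 0.0611). It was called by DESeq2 with an adjusted p of 0.00565, and by edgeR without 15.5 dpc replicate 1 or 2, and the difference between *Calr* and *Canx* was not tested.

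The largest change among chaperones was that of *Sdf2l1* (ENSMUSG00000022769, chr16:17130138-17132383, minus strand), which works with the co-chaperone ERdj3 in the BiP complex. It had 830, 806 and 782 normalised counts and then 7109, 2863 and 4008. The later samples differed widely among themselves, and the lowest of them was still far above the earlier stage. The log2 fold change was 2.53 (SE 0.31, edgeR adjusted p = 0.00227), or 5.78-fold. *Manf*, a small ER protein that binds BiP and can be secreted, had 2073, 2178 and 1965 and then 9163, 3948 and 5543 (log2 fold change 1.58, SE 0.28, edgeR adjusted p = 0.00865). Replicate 1 of 15.5 dpc was the highest and replicate 2 the lowest of the later samples for both genes.

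The J-domain co-chaperones of this class, which drive the ATP cycle of BiP, all rose. *Dnajc3*, or p58IPK, had 2028, 2156 and 2192 normalised counts and then 5071, 4668 and 4931. Its later samples were close together, and its log2 fold change of 1.20 (SE 0.09, edgeR adjusted p = 0.000472) had the smallest SE among the chaperones with a change over 1. *Dnajb9*, or ERdj4, a target of spliced Xbp1 that restrains Ire1, had 269, 271 and 233 and then 573, 361 and 495 (log2 fold change 0.88, SE 0.18, edgeR adjusted p = 0.0136), with the stages apart. *Dnajb11*, or ERdj3, had a log2 fold change of 1.09. Of the remaining chaperones, *Hyou1*, the nucleotide exchange factor Grp170 of BiP, rose by 1.02 with later samples of 8374, 7725 and 7781 against a highest earlier sample of 4086, and *Hspa13* rose by 0.44. *Hspa13* and *Dnajb9* lost their call when any 13.5 dpc replicate or 15.5 dpc replicate 3 was left out, *Calr* without any of the 13.5 dpc replicates, *Hsp90b1* without 13.5 dpc replicate 1 and *Manf* without 13.5 dpc replicate 3, with adjusted p-values of 0.0501 to 0.0784 and the same sign. *Hspa13* also lost its call with library size scaling alone (adjusted p = 0.179).

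The disulfide isomerases and other folding enzymes were led by a gene whose count is uncertain. *Pdia2* (ENSMUSG00000024184, chr17:26195999-26199087, minus strand), the disulfide isomerase known for its expression in the pancreas, had 8.2, 4.29 and 5.03 normalised counts at 13.5 dpc and 670, 173 and 303 at 15.5 dpc. The stages were far apart, with a fitted log2 fold change of 6.01 (SE 0.66). Because the gene entered the fit only through the stage in which it was high, this value is given as a description without its p. In the annotation used here 92.4% of its exon bases lie within exons of *Arhgdig* on the same strand, which leaves 130 bases of its own, and reads shared by 2 genes are not assigned by the counting tool's default. The raw counts of *Pdia2* were 9, 5 and 7 and then 484, 169 and 241, and those of *Arhgdig*, named here after its values were seen, were 352, 416 and 550 and then 6565, 2978 and 3842. *Arhgdig* had a log2 fold change of 3.98 (SE 0.4, edgeR adjusted p = 0.00109), so that the reads assigned to either gene rose. Reads of the shared bases, which that default would leave out, cannot be divided between the 2 genes, and the level of *Pdia2* stays uncertain.

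*P4hb* (ENSMUSG00000025130, chr11:120560298-120573253, minus strand), the classical protein disulfide isomerase, had 13988, 14467 and 14602 normalised counts and then 37171, 26307 and 30935. Every later sample was well above the earlier stage, with a log2 fold change of 1.13 (SE 0.14, edgeR adjusted p = 0.00215), or 2.19-fold. *Pdia4*, or ERp72, had 4920, 5083 and 4879 and then 7984, 6558 and 7567, a difference of 0.57 on the log2 scale (SE 0.10, edgeR adjusted p = 0.00883). *Creld2*, an ER protein that is strongly induced by ER stress, had 1105, 1044 and 1044 and then 4481, 2222 and 3108. Its log2 fold change of 1.62 (SE 0.24, edgeR adjusted p = 0.00412) was the second highest of the class, and replicate 1 of 15.5 dpc was again the top sample.

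Of the other enzymes, *Ppib*, the prolyl isomerase cyclophilin B, rose by 1.25, *Pdia5* by 1.12, *Pdia6* by 0.95 and *Erp44*, which retains clients through their thiols, by 0.94. *Pdia3*, or ERp57, the isomerase that works with the calnexin cycle, rose by 0.63. The smallest called changes were those of *Txndc11* at 0.54 and *Txndc5* at 0.37. *Erp29*, a redox-inactive relative of the isomerases, had later samples of 5155, 2945 and 3727 against earlier ones of 2895, 2936 and 2916, so that its stages were apart only by a few counts in replicate 2 (log2 fold change 0.43, edgeR adjusted p = 0.135), and without that replicate it was called higher at 0.62. *Dnajc10*, the reductase ERdj5, had 1895, 1911 and 1805 and then 1947, 1906 and 1992. It overlapped between the stages with a log2 fold change of 0.059 (SE 0.081, edgeR adjusted p = 0.611) and -0.15 with library size scaling alone, the lowest of the class. *Txndc5* lost its call with library size scaling alone, with the replicate number as a block (adjusted p = 0.0745) and when any 13.5 dpc replicate or 15.5 dpc replicate 3 was left out. *Pdia4* lost its call in the same 4 refits, *Pdia3* and *Pdia6* without any of the 13.5 dpc replicates, and *Txndc11* without 13.5 dpc replicate 1 or 2, with adjusted p-values of 0.0519 to 0.0611.

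The ERAD genes held 3 of the 5 largest changes of the list. *Derl3* (ENSMUSG00000009092, chr10:75893413-75895941, plus strand), a derlin of the channel through which misfolded proteins leave the ER, had 30.1, 45.4 and 40.9 normalised counts and then 425, 225 and 282. It was the least abundant of the reliably counted genes at 13.5 dpc, and every later sample was several times higher. Its log2 fold change was 2.99 (SE 0.28, edgeR adjusted p = 0.000957), or 7.92-fold. Its relatives *Derl1* and *Derl2*, which are expressed more widely, rose by 0.65 and 0.60, and both lost their call when any 13.5 dpc replicate or 15.5 dpc replicate 3 was left out.

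*Edem2* (chr2:155701677-155729475, minus strand), the mannosidase that starts the trimming of doomed glycoproteins, had means of 1409 ± 153 and then 7727 ± 2240 (SD, n = 3), a log2 fold change of 2.45 (SE 0.22, edgeR adjusted p = 0.000822). *Edem1* had 1696, 1920 and 1987 normalised counts and then 8002, 6664 and 6295, a log2 fold change of 1.90 (SE 0.13, edgeR adjusted p = 0.000355). The stages were far apart for both. The third of these genes, *Edem3*, had earlier samples of 765, 754 and 859 and later ones of 797, 1573 and 1138. It overlapped between the stages and was not called (log2 fold change 0.56, SE 0.23, edgeR adjusted p = 0.11), and without 15.5 dpc replicate 1 it was 0.78 with an adjusted p of 0.00281.

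*Herpud1* (ENSMUSG00000031770, chr8:94386438-94395377, plus strand), which encodes the stress-induced organiser Herp of the Hrd1 complex, had 596, 645 and 653 normalised counts and then 3252, 2138 and 2608. The stages were far apart, with a log2 fold change of 2.08 (SE 0.16, edgeR adjusted p = 0.000573), or 4.22-fold. *Sel1l* (ENSMUSG00000020964, chr12:91806043-91849157, minus strand), the adaptor that stabilises the ubiquitin ligase Hrd1, had 2041, 2044 and 2393 and then 5664, 6287 and 5721. Its later samples were close together (log2 fold change 1.45, SE 0.11, edgeR adjusted p = 0.000472), or 2.73-fold. *Syvn1*, which encodes Hrd1 itself, rose by 1.05, with later samples of 2329, 1991 and 2054 against earlier ones of 1002, 1035 and 1033.

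Of the lectins that read trimmed glycans, *Os9* rose by 0.99. The other, *Erlec1*, had 576, 599 and 570 normalised counts and then 966, 739 and 864, with stages apart and the lowest log2 fold change of the class (0.56, SE 0.12, edgeR adjusted p = 0.0158), and it lost its call when any 13.5 dpc replicate or 15.5 dpc replicate 3 was left out.

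**Figure D3:**
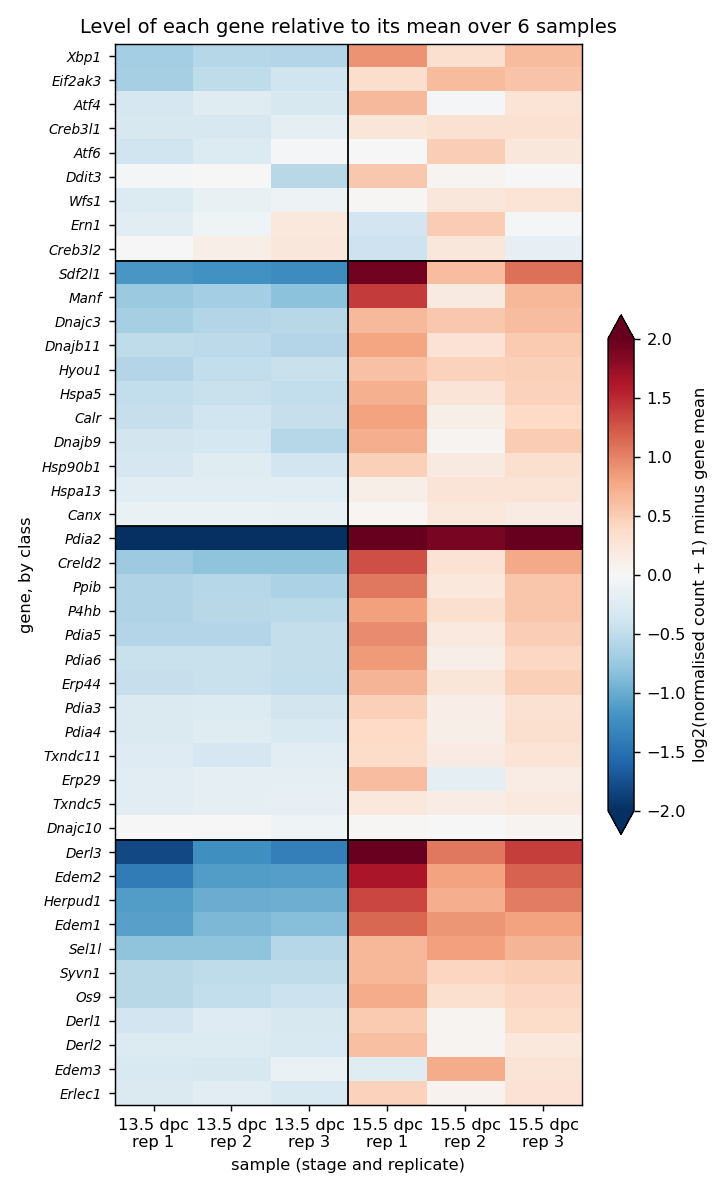
Colour gives log2(normalised count + 1) of each of the 44 genes (vertical axis, ordered by class and fold change) minus the mean of that gene over the 6 samples (horizontal axis), with colours cut at -2 and 2. Most 13.5 dpc cells are blue and most 15.5 dpc cells red, the column of 15.5 dpc replicate 1 is deepest for most genes, and *Ern1*, *Creb3l2*, *Dnajc10*, *Ddit3*, *Edem3*, *Erp29*, *Atf4* and *Atf6* include cells that depart from this.

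Abundance was compared between genes as counts per kilobase of exon scaled to library size (RPKM), since longer transcripts give more counts. On this scale *Ppib* was the highest of the list at both stages, with 560 ± 11.9 and then 1329 ± 394 (SD, n = 3), although 54.2% of its exon bases face exons of *Snx22* on the opposite strand and strand-specific counting was inferred. *Calr* had 401 ± 10.9 and then 748.9 ± 180, *P4hb* 397 ± 8.92 and then 870.5 ± 151, and *Hspa5* 347 ± 7.22 and then 675.5 ± 110. Within each of the 3 samples of 15.5 dpc the order was *P4hb*, *Calr*, *Hspa5*, with *P4hb* 1.27 to 1.30 times *Hspa5*, whereas at 13.5 dpc *P4hb* was above *Calr* in 1 of 3 samples. The 5 highest genes, with *Hsp90b1* as the fifth, were the same at both stages. The sensors were low: *Eif2ak3* had 6.26 ± 0.6 and then 12.9 ± 1.27, *Ern1* 6.53 ± 1.04 and then 7.01 ± 2.23, and *Ddit3* 6.05 ± 1.22 and then 7.90 ± 1.75. *Xbp1* and *Atf4* were the most abundant factors, with 80.2 ± 3.47 and 104 ± 3.72 at 13.5 dpc and 190.6 ± 38 and 161.2 ± 37.7 at 15.5 dpc, so that their order changed between the stages. Within single samples *Xbp1* was 0.755 to 0.799 times *Atf4* at 13.5 dpc and 1.13 to 1.23 times *Atf4* at 15.5 dpc.

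Ranks within the list moved by up to 10 places. *Sdf2l1* went from rank 14 to rank 8, *Edem2* from rank 20 to rank 13 and *Herpud1* from rank 28 to rank 18, *Edem1* from rank 26 to rank 17 and *Derl3* from rank 43 to rank 33. *Dnajc10* went down from rank 22 to rank 30 and *Ern1* from rank 39 to rank 44, the last place. The ranking includes *Pdia2*, whose level is uncertain and which went from rank 44 to rank 34.

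**Figure D4:**
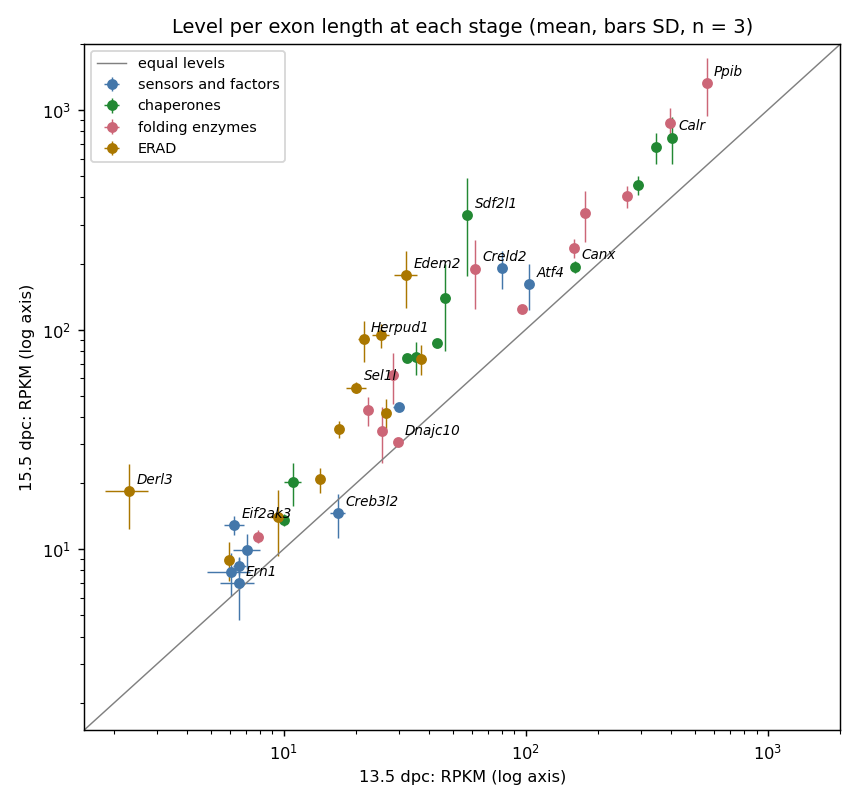
Mean level of 43 of the 44 genes in RPKM at 13.5 dpc (horizontal log axis) and 15.5 dpc (vertical log axis), with bars of 1 SD (n = 3) and the diagonal of equal levels. *Pdia2* is left out because its exon length is shared with another gene, *Derl3* lies farthest above the diagonal, and *Creb3l2* lies below it.

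The 15.5 dpc replicates were ordered alike for most of the list. Of the 35 genes called higher, 31 were highest in replicate 1 and 30 lowest in replicate 2 among the later samples. The same held for 1348 of the 1805 genes called higher over the whole genome, which were highest in replicate 1, and for 17 of the 18 acinar markers, which were highest in replicate 1. Mesenchyme markers were highest in replicate 2 for 10 of 15. The coefficient of variation was larger at 15.5 than at 13.5 dpc for 40 of the 44 genes, and it was highest for *Pdia2* at 67.4%, followed by 47.1% for *Sdf2l1* and 43% for *Manf*, against 35.6%, 3.01% and 5.13% at the earlier stage. The part of these marker differences in the fold changes was not tested.

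The 8 genes that were highest in replicate 2 were *Atf6*, *Ern1*, *Eif2ak3*, *Creb3l1*, *Creb3l2*, *Canx*, *Sel1l* and *Edem3*, which include 5 of the 9 sensors and factors. Their median exon length was 6943.5 bases, against 3248 bases for the 33 genes highest in replicate 1. Across the 44 genes, Spearman's rho of exon length with the ratio of replicate 1 to replicate 2 was -0.67, given as a description because the genes share the same libraries. Over all genes tested the same trend between these 2 libraries had a rho of -0.59, and the pairs with replicate 3 had -0.49 and 0.52. The ratio itself ran from 0.507 for *Edem3* to 3.88 for *Pdia2*, with a median of 1.34. With a smooth trend of each library with exon length removed, 39 of the 44 genes were called higher and 0 lower. Over all genes this fit called 18.1% higher (2812 in place of 1805) and 14.7% lower, or 32.8% in place of 22.3% in either direction. The added genes were *Atf6* (0.70, edgeR adjusted p = 0.000622), *Edem3* (0.72), *Canx* and *Wfs1*.

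Related genes outside the 44 were counted in the same way, and their calls are read against 11.6% of all genes higher and 10.7% lower. Of 20 other genes of stress signalling 18 were tested, of which 4 were called higher and 1 lower, with a median log2 fold change of 0.20. The largest change was that of *Asns*, the asparagine synthetase that is a known target of Atf4, with 972, 1098 and 1081 normalised counts and then 4674, 2904 and 3472 (log2 fold change 1.81, SE 0.18, edgeR adjusted p = 0.00105), followed by *Creb3l3* at 1.65. The lowest were *Crebrf* at -0.62, which was called lower (edgeR adjusted p = 0.0324), and *Mbtps1*, the protease that cuts Atf6, at -0.38, which was not called (edgeR adjusted p = 0.0649).

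Of 29 other ER folding genes 27 were tested, of which 8 were called higher and 3 lower, with a median of 0.18. The highest were *Erp27*, which had 227, 234 and 215 normalised counts and then 3378, 1465 and 1808 (log2 fold change 3.30, SE 0.32), and the prolyl isomerase gene *Fkbp11*, with 247, 278 and 269 and then 4037, 1485 and 2100 (3.26, SE 0.36). The lowest were *Tmx4* at -0.56, which was called lower, and *Cdnf*, the paralogue of *Manf*, at -0.55, which was not. *Cdnf* had only 12, 23 and 14 raw counts and then 6, 13 and 4. Of 22 other ERAD genes, all tested, 8 were called higher and 0 lower by edgeR's quasi-likelihood test, with a median of 0.24. *Selenos* led them at 1.52 (SE 0.25) and *Selenok* followed at 0.83 without a call (edgeR adjusted p = 0.0531), while *Uggt2* at -0.26 and *March6* at -0.18 were lowest. Differences between these lists and the 44 genes were not tested.

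**Figure D5:**
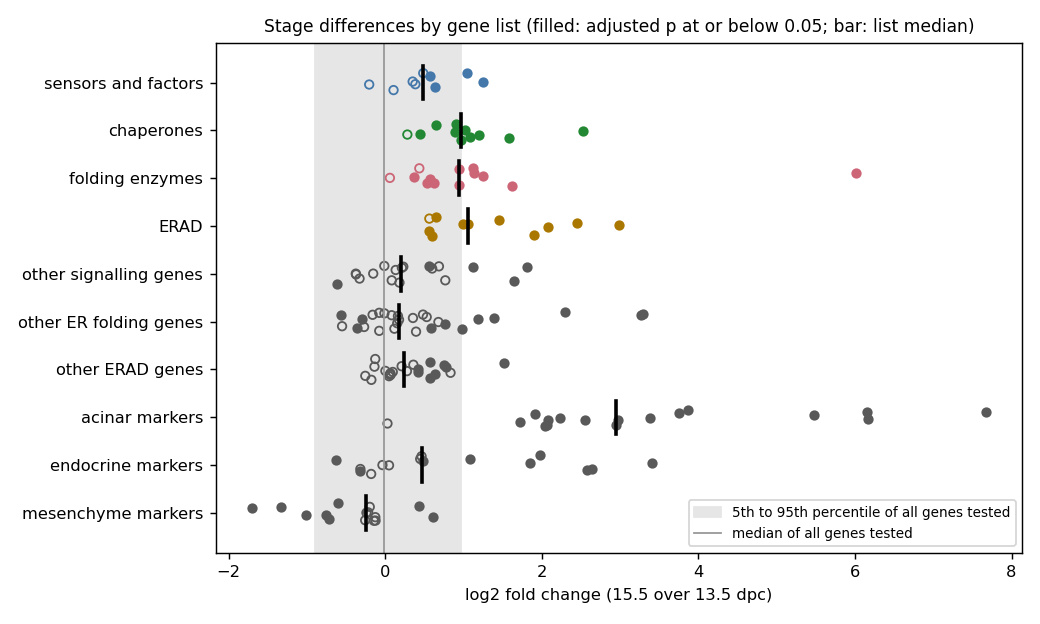
Log2 fold change at 15.5 over 13.5 dpc (horizontal axis) of the genes tested in the 4 classes, in 3 lists of related genes and in 3 marker lists (vertical axis), filled where the adjusted p was at or below 0.05, with the list median as a black bar and the 5th to 95th percentile of all genes, -0.90 to 0.96, in grey. The class medians lie between 0.48 and 1.05, those of the related lists between 0.18 and 0.24, and that of the acinar markers at 2.95. Without *Cdnf* the median of the other ER folding genes is 0.26.

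Markers of other cell types moved in both directions. Of 15 endocrine markers 7 were called higher and 2 lower, with *Sst* and *Ins2* highest at 3.41 and 2.64, *Chgb* and *Nkx2-2* lowest at -0.63 and -0.33, and a summed count of 31533 to 34220 at 13.5 and 34679 to 56183 at 15.5 dpc. Of 15 mesenchyme markers 2 were called higher and 6 lower, with a summed count of 132920 to 149890 and then 97398 to 145060. Of 6 epithelial markers 3 were called higher and 0 lower, and of 9 tested duct and progenitor markers 2 were higher and 3 lower. Of 8 collagen cargo genes, whose products also pass through the ER, 0 were called in either direction and the median was -0.13. No marker list apart from the acinar one had a median above that of the 44 genes. The part of any of these lists in the changes of the ER genes was not tested.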

How the data were processed

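Poly(A) RNA of wt C57/Bl6J pancreata from 3 samples per stage was sequenced as strand-specific libraries. The authors mapped the reads to mm10 (GSNAP), took reads with a unique position and counted them per Ensembl gene (featureCounts 1.4.6, with bcl2fastq 1.8.4 also in the submitters' processing notes). The values they deposited are raw counts. The strand setting of the counting is not given in the sources used here. Of 137 genes that lie inside opposite-strand exons 28 reached 10 counts, against 0 of 312 genes that lie inside same-strand exons, and counting was therefore taken to use the strand. Symbols and coordinates came from GENCODE on mm10 for 35449 of 37224 identifiers. At most 8.48% of the 50-base windows of a listed gene (*Ppib*) occurred in another gene's transcripts.

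The analysis used R 4.3.3 with edgeR 4.0.16 (filterByExpr, TMM, quasi-likelihood test without covariates, Benjamini-Hochberg adjustment over 15578 genes), limma 3.58.1 and DESeq2 1.42.0, and with Python 3.11.15. SE is the size of the log2 fold change over the root of the F statistic. Data were simulated with the same samples and stages. Without an exon length trend, edgeR recovered 182 of 200 changed genes among 15570 tested (82 changed 1.5-fold, 100 changed 2-fold), with 4 false calls. With such a trend simulated and left in, it recovered 137 of 200 among 15682 tested (38 changed 1.5-fold, 99 changed 2-fold), with 1 false call. With that trend removed it recovered 184, with 7 false calls. The simulated spread was smaller than the common coefficient of variation of these data, 0.15. Exact intervals of shares cover counting error only. Replicates are pools of embryos, and p-values measure the spread between these pools.

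The listed genes, their classes, and the lists of related genes and markers were chosen with earlier results of these data known. Values in every sample are given for named sensors, chaperones, enzymes and ERAD genes and for the highest and lowest fold change of each class, and *Arhgdig* was added after its values were seen. Further marker lists were endothelium (0 of 7 called), erythroid (1 higher and 5 lower of 7), immune (0 higher and 2 lower of 8), neural and glia (1 and 3 of 7), liver (0 and 2 of 7) and cell cycle (1 and 0 of 9). These are read against 11.6% of all genes higher and 10.7% lower. *Hbb-bh1* and *Ahsg* lay under the filter minimum in a stage. Without them 1 of 6 erythroid genes was called higher and 4 lower, and of 6 liver genes 0 and 2. Alternatives were other normalisations, DESeq2, other filters, genes above 1% of the counts taken out, the replicate number as a block, an exon length trend (lowess, span 0.5) removed, each sample left out, and the thresholds of the study. RefSeq promoters (GRCm38.p6) were used for 36 genes, and those of *Hspa13*, *Creb3l1*, *Manf*, *Erlec1*, *Atf6*, *Erp29*, *Derl1* and *Hyou1* were not used here. The table held 0 columns of other samples, and no column of the authors' own comparisons.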

Additional observations from a re-analysis of the deposited data

How the results depend on the processing

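With library sizes as the only scaling, the median of all genes moved from -0.01 to -0.22. The list median then fell to 0.69 and stayed 0.91 above that of all genes (0.93 with TMM). The class medians were 0.28 for sensors, 0.74 for chaperones, 0.71 for folding enzymes and 0.83 for ERAD genes. In this setting 33 of the 44 genes were called higher and 0 lower, against 7.27% of all genes higher and 18.9% lower. The genes *Ern1* (-0.087) and *Dnajc10* (-0.15) changed sign. Of all genes called, 27.7% were higher, against 52.1% with TMM. With the exon length trend removed the ERAD median was 1.17. The thresholds of the study gave 1539 genes in place of 3467.

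With 1 sample left out, 22 to 39 of the 44 genes were called higher and 0 to 1 lower, and the list median was 0.75 to 1.06. These counts and the class counts below are read against 4.54% to 24.7% of all genes called higher in these refits and 3.29% to 23.3% lower. The highest shares were those without 15.5 dpc replicate 2, followed by 14.1% higher and 12.8% lower without 15.5 dpc replicate 1. Leaving out the 13.5 dpc replicates 1, 2 and 3 in turn gave 1235, 1331 and 1402 calls over all genes, and leaving out 15.5 dpc replicates 2 and 3 gave 7620 and 1438. Called higher were 3 to 6 sensors, 6 to 11 chaperones, 6 to 12 folding enzymes and 7 to 11 ERAD genes, and 0 to 1 sensors were called lower. The class medians were 0.44 to 0.59, 0.83 to 1.07, 0.73 to 1.06 and 0.98 to 1.11 in that order. *Ern1* ranged from -0.16 without 15.5 dpc replicate 2 to 0.29 without replicate 1. The cause was not tested. These refits hold fewer samples.

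The replicate numbers did not pair the samples: the deviations of samples with the same number correlated at 0.21, -0.21 and 0.03. With the replicate block 34 of the 44 genes were called higher, *Txndc5* being lost. This fit called 9.15% of all genes higher and 8.02% lower, 2676 genes in either direction.

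Over 659 comparisons of a gene with an alternative fit, the thresholds of the study left aside, 592 kept direction and call, 48 lost a call, 16 gained one and 3 changed sign. Of the 35 genes called higher, 21 kept their call in every alternative fit in which they were tested (20 without *Pdia2*, which was not tested with at least 10 counts required in every sample), and the thresholds of the study kept 24 of the 44 as higher. The precision was set by 3 pools per stage.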
